A study of Mus musculus with 10 samples.

Results

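CC chemokines are small secreted proteins, named for a pair of adjacent cysteines, that attract leukocytes by binding G protein-coupled receptors of the Ccr family. The 10 CC chemokine genes described are Ccl2, Ccl3, Ccl4, Ccl6, Ccl7, Ccl8, Ccl9, Ccl11, Ccl12 and Ccl17. They were listed by name, with no threshold on their values but with earlier results of these data known, from the 18193 genes for which the array holds at least 1 probe set annotated with a single symbol. Each gene was read from the brightest of its probe sets, judged by mean log2 intensity, and the further probe sets of Ccl6 and Ccl9, 1 each, served as a check. All 10 genes passed the filter on low values (a log2 intensity of 5 or more on at least 2 arrays), each of them on 6 or more arrays, as did 14988 genes in all.

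The lungs came from ICR mouse pups used to model bronchopulmonary dysplasia, a chronic lung disorder of infants born early and treated with oxygen. From within 12 h of birth, pups breathed 80% oxygen or room air until postnatal day 14 (P14) or day 29 (P29). The 4 groups are P14 room air (2 arrays), P14 hyperoxia (3 arrays), P29 room air (2 arrays) and P29 hyperoxia (3 arrays). The labels call the room-air lungs WT and the hyperoxia lungs BPD, name no genetic change in any group, and state that litters were mixed and allotted at random and that nursing dams changed cages every 24 h. They do not say whether each array is a separate animal, so the spread behind each p-value may be technical.

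In the mouse, Ccl2, Ccl7 and Ccl12 bind Ccr2 and draw inflammatory monocytes out of the blood. Ccl8 of the mouse acts on Ccr8, the eotaxin Ccl11 draws eosinophils through Ccr3, and Ccl17 draws T cells through Ccr4. Ccl6 and Ccl9, which have no direct human counterpart, are made mostly by macrophages and other myeloid cells and act on Ccr1, as does Ccl3, while Ccl4 is made by activated macrophages and T cells. In the lung, alveolar and interstitial macrophages, dendritic cells, epithelium and fibroblasts can all make CC chemokines during injury.

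Of the 10 genes, 9 lie on chromosome 11 and Ccl17 lies on chromosome 8 (RefSeq, GRCm38.p6). On chromosome 11, Ccl2, Ccl7, Ccl11, Ccl12 and Ccl8 follow each other in this order with 0 other coding genes between neighbours. After 27 other coding genes come Ccl9, Ccl6, Ccl3 and Ccl4, again with 0 between neighbours. The RefSeq promoter table held 6 of the 10 genes (Ccl3, Ccl6, Ccl8, Ccl9, Ccl12 and Ccl17). Shown here, 5′ to 3′ on the gene's strand, are the 250 bases before the start site of Ccl8 and Ccl12, the genes with the largest rise at P29, and of Ccl17, which rose beside them from another chromosome. Capitals mark the TATA motif TATAAA in Ccl8 (chr11:82114935-82115184, plus strand) and Ccl12 (chr11:82101595-82101844, plus strand), and the STAT6 palindrome (TTC and GAA with any 4 bases between) in Ccl17 (chr8:94810203-94810452, plus strand).
Ccl8: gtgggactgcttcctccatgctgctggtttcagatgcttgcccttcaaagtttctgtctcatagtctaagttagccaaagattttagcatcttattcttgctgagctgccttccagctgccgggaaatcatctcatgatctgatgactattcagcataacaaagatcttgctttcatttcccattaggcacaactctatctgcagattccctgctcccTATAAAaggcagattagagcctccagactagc
Ccl12: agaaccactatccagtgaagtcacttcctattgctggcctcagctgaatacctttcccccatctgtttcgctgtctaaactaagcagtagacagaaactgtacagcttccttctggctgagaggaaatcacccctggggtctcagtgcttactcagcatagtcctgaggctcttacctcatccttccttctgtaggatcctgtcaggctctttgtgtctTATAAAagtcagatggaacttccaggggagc
Ccl17: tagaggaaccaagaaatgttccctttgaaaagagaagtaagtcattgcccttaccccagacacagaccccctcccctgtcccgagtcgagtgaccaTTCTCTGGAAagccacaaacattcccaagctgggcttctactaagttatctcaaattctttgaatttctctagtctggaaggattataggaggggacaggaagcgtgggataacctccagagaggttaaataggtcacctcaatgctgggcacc
Counted from the start site, the TATA motif lay at -32 to -27 in Ccl8 and at -31 to -26 in Ccl12, and the STAT6 palindrome at -154 to -145 in Ccl17. Of 32851 RefSeq windows of this length, 12.4% held TATAAA and 5.85% held the palindrome, on either strand. The other motifs searched were AP-1 (TGANTCA, in 6.75% of windows), the interferon-stimulated response element (GAAA, any 2 bases, GAAA; 2.98%) and the NF-kappaB motif (7.25%). These were not in the Ccl8, Ccl12 and Ccl17 windows. The Ccl9 window held an NF-kappaB match at -35 to -26, an AP-1 match at -53 to -47 and TATAAA at 3 positions, of which 2 overlap on opposite strands. The Ccl3 and Ccl6 windows held none of the 5 motifs. The TATA motif was added to the search after the sequences had been seen, and a match is a description of letters only.

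The deposited values are log2 intensities, and array medians lay between 6.41 and 6.47. Correlations across genes were 0.993 to 0.996 within groups and 0.935 to 0.983 between them. The 8 lung markers (surfactant proteins and others) had list means of 12.28 to 13.13, although 1 of them, Nkx2-1, lay at 5.79 to 6.26 on the hyperoxia arrays, under the array medians. A measure of RNA quality, the actin control's 3' minus 5' difference, ran from 1.33 to 2.21 for the 6 hyperoxia arrays and from 0.32 to 0.74 for the 4 in room air (two-sided exact permutation p = 0.00476, the smallest that 210 splits can give). Sex-linked transcripts showed a male pattern on all P14 arrays and a female one on both P29 room-air arrays. In P29 hyperoxia, replicate 1 was male, replicate 2 female, and replicate 3 carried both patterns. Array numbers are small, which limits the precision of each value. Calls below are from limma on all 10 arrays, at a Benjamini-Hochberg adjusted p under 0.05 over 14988 genes. Except where the ages are compared, rose and fell mean higher and lower in hyperoxia than in room air of the same age. After each array was centred on its own 75th percentile, the median effect of all genes moved from 0.04 to -0.06 at P14 and to -0.09 at P29, and the share of calls that were higher moved from 58.6% to 45% and from 57.2% to 41.2%.

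At P29, hyperoxia lungs held far more transcript of the monocyte attractant Ccl12 (9.14-fold) and of Ccl8 (5.82-fold) than room-air lungs of the same age, and less of the macrophage chemokine Ccl6 (2.72-fold lower). Ccl2, Ccl7 and Ccl17 also rose at P29, by 1.94-fold, 1.64-fold and 1.7-fold. At P14, Ccl2, Ccl7, Ccl12 and Ccl17 were not called. Ccl8 (1.3-fold) and Ccl11 (1.49-fold) were higher at that age, and Ccl4 (1.24-fold), Ccl6 (2.87-fold) and Ccl9 (1.51-fold) were lower.

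**Figure D1:**
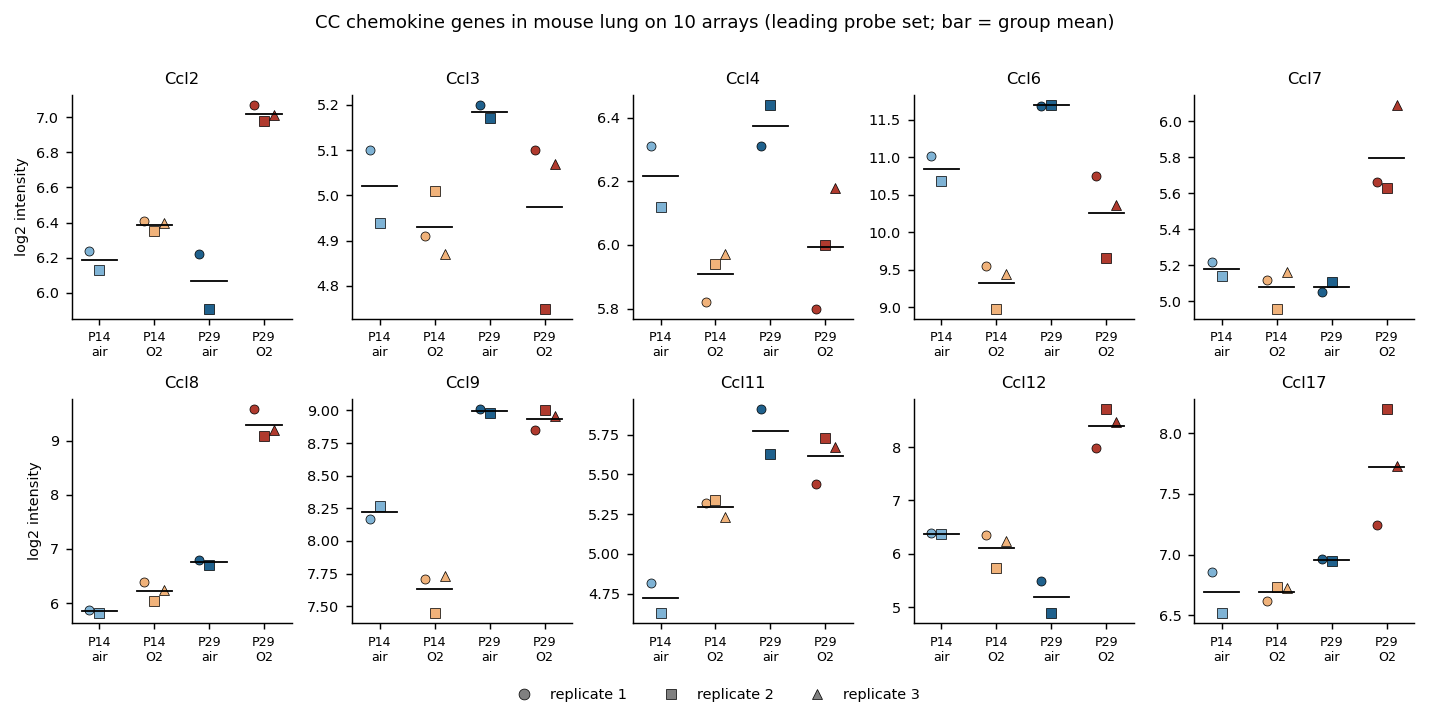
Log2 intensity of the leading probe set of each of the 10 CC chemokine genes on the 10 arrays, by group (age and gas), with replicates as symbols and a bar at each group mean. The vertical scales differ between panels. Ccl8 lies at 9.10 to 9.59 and Ccl12 at 7.98 to 8.71 on the P29 hyperoxia arrays, above every other array, and Ccl6 is lower in hyperoxia at both ages.

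In counts, 2 of the 10 genes were called higher at P14, where 32.3% of all genes tested were, and 3 were called lower, where 22.8% of all genes were. At P29, 5 were called higher against 34.2% of all genes and 2 lower against 25.6%. The median effect of the 10 genes was -0.09 at P14 and 0.33 at P29 on the log2 scale, against 0.04 at both ages over all genes tested. Hyperoxia and room-air arrays did not overlap for 7 of the 10 genes at P14, as for 71.3% of all genes tested, and for 8 at P29, as for 74.3%. With shares of this size in all genes, the counts of calls by themselves do not set the CC chemokines apart, and the account that follows rests on the size of each gene's difference. The same shares of all genes, at P14 and at P29, are the background for the counts of each gene list below.

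Among the Ccr2 ligands, Ccl12 (probe set 1419282_at) had the largest difference. Its log2 intensity was 6.39 and 6.37 in P14 room air, 6.36, 5.73 and 6.25 in P14 hyperoxia, 5.49 and 4.90 in P29 room air, and 7.98, 8.71 and 8.47 in P29 hyperoxia. The 4 groups did not overlap, although the P14 groups came within 0.01 of each other, and the order from low to high was P29 room air, P14 hyperoxia, P14 room air and P29 hyperoxia. Hyperoxia minus room air was 3.19 ± 0.23 (SE) at P29 (adjusted p = 1.54e-06) and -0.27 ± 0.23 at P14 (adjusted p = 0.342). The difference between these effects was 3.46 ± 0.33 (adjusted p = 5.95e-05). In room air Ccl12 fell by 1.18 ± 0.26 on the log2 scale from P14 to P29 (adjusted p = 0.00322), while it rose by 2.28 ± 0.21 in hyperoxia (adjusted p = 2.84e-05). Leaving out any 1 array or applying any other alternative kept the P29 effect between 2.90 and 3.52.

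Ccl2 (1420380_at), the monocyte attractant also known as MCP-1, stood at 6.24 and 6.13 in P14 room air, 6.41, 6.35 and 6.4 in P14 hyperoxia, 6.22 and 5.91 in P29 room air, and 7.07, 6.98 and 7.01 in P29 hyperoxia. The room-air groups of the 2 ages overlapped, P14 hyperoxia lay just above them, and P29 hyperoxia was highest, with its 3 arrays close together. The effect was 0.95 ± 0.09 (SE) at P29 (adjusted p = 1.19e-05). At P14 it was 0.20 ± 0.09 (adjusted p = 0.0958), although the arrays did not overlap. The effects differed by 0.76 ± 0.13 (adjusted p = 0.00239).

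Ccl7 (1421228_at), or MCP-3, was below the array median on all 10 arrays. It measured 5.22 and 5.14 in P14 room air, 5.12, 4.96 and 5.16 in P14 hyperoxia, 5.05 and 5.11 in P29 room air, and 5.66, 5.63 and 6.09 in P29 hyperoxia. Only the P29 hyperoxia arrays stood apart, and the other 3 groups overlapped their neighbours in the order of levels. Its effect was 0.71 ± 0.13 (SE) at P29 (adjusted p = 0.000758) and -0.09 ± 0.13 at P14 (adjusted p = 0.55), a difference of 0.81 ± 0.18 (adjusted p = 0.0092).

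Ccl8 (1419684_at), or MCP-2, was the other gene with a change of several fold. Its log2 intensity was 5.87 and 5.82 in P14 room air, 6.39, 6.04 and 6.24 in P14 hyperoxia, 6.80 and 6.71 in P29 room air, and 9.59, 9.10 and 9.20 in P29 hyperoxia. The groups stood in this order without overlap. The effect of hyperoxia was 2.54 ± 0.14 (SE) at P29 (adjusted p = 2.88e-07) and 0.38 ± 0.14 at P14 (adjusted p = 0.0394), and the effects differed by 2.16 ± 0.20 (adjusted p = 4.61e-05). The P14 call was lost in 8 of 22 alternatives, among them leaving out P14 room air replicate 1 or 2 or P14 hyperoxia replicate 1 or 3. The P29 effect stayed between 2.34 and 2.74 in all of them. Ccl8 also rose with age in room air, by 0.91 ± 0.15 (adjusted p = 0.000645), and by 3.07 ± 0.13 in hyperoxia, an 8.41-fold rise (adjusted p = 1.4e-07).

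The eotaxin Ccl11 (1417789_at) had the opposite time course. It was dim, below the array median on every array, at 4.82 and 4.63 in P14 room air, 5.32, 5.34 and 5.23 in P14 hyperoxia, 5.91 and 5.63 in P29 room air, and 5.44, 5.73 and 5.67 in P29 hyperoxia. The 2 P29 groups overlapped and the P14 groups did not. It was higher in hyperoxia by 0.57 ± 0.11 (SE) at P14 (adjusted p = 0.00148), and the difference was -0.15 ± 0.11 at P29 (adjusted p = 0.26). The effects differed by -0.73 ± 0.16 (adjusted p = 0.00771). In room air Ccl11 rose 2.06-fold between the ages (1.04 ± 0.12 on the log2 scale, adjusted p = 4.82e-05). The rise with age in hyperoxia, 0.32 ± 0.10 (adjusted p = 0.0371), was lost in 10 of the 21 alternatives that tested it, 5 of which left out a hyperoxia array (each of the P14 replicates, or P29 replicate 2 or 3). Of the eosinophil and basophil markers, 3 of 10 were tested (Siglecf, Mcpt8 and Alox15), with 0 higher and 3 lower at P14 and 0 higher and 2 lower at P29. Siglecf, also listed below as an alveolar macrophage marker, had means of 7.02 in P29 room air and 4.17 in P29 hyperoxia. Those of Mcpt8 were 4.82 and 4.79. Epx, Prg2, Prg3, Il5ra and the eotaxin receptor Ccr3 were below the filter, so these counts say little about eosinophils.

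Ccl17 (1419413_at), or TARC, a product of dendritic cells and macrophages in type 2 responses, read 6.86 and 6.52 in P14 room air, 6.62, 6.73 and 6.72 in P14 hyperoxia, 6.96 and 6.95 in P29 room air, and 7.24, 8.20 and 7.73 in P29 hyperoxia. The P14 groups overlapped. All P29 hyperoxia arrays were above the others, with a spread among them of nearly 1 log2 unit. The effect was 0.77 ± 0.21 (SE) at P29 (adjusted p = 0.00847) and 0.00 ± 0.21 at P14 (adjusted p = 0.993). The difference between the effects, 0.77 ± 0.30, did not pass (adjusted p = 0.0862). It passed without P29 hyperoxia replicate 1, at 1.01. In hyperoxia Ccl17 rose by 1.04 ± 0.19 between the ages (adjusted p = 0.00202).

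Ccl6 (1417266_at), a chemokine of macrophages, was in the upper part of the intensity range on all arrays and fell in hyperoxia at both ages. It stood at 11.02 and 10.68 in P14 room air, 9.55, 8.98 and 9.44 in P14 hyperoxia, 11.69 and 11.70 in P29 room air, and 10.75, 9.65 and 10.36 in P29 hyperoxia. The hyperoxia arrays were below the room-air arrays of their own age without overlap, and P29 hyperoxia overlapped P14 room air. The effect was -1.52 ± 0.26 (SE) at P14 (adjusted p = 0.000644) and -1.44 ± 0.26 at P29 (adjusted p = 0.000753). These differed by 0.08 ± 0.37, with a 95% interval from -0.74 to 0.90 (adjusted p = 0.909). The second probe set of Ccl6, 1420249_s_at, gave -0.91 ± 0.25 (adjusted p = 0.0111) and -1.16 ± 0.25 (adjusted p = 0.0027 over 27604 probe sets).

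Alveolar macrophage markers were mostly lower in hyperoxia at both ages, as Ccl6 was. Of 12 listed, 9 were tested, with 0 higher and 7 lower at P14, and 0 higher and 9 lower at P29. Their median effect was -0.56 at P14 and -1.73 at P29, against -1.52 and -1.44 for Ccl6. For P29 minus P14, 5 of the 9 markers were called lower and 0 higher, while Ccl6 (0.08) was not called. The median difference of the markers was -0.53, inside the 95% interval of Ccl6 (-0.74 to 0.90). Whether the age patterns of the list and of Ccl6 differ was not tested. The mean log2 level of the list was 7.40 to 7.57 in P14 room air, 6.67 to 6.88 in P14 hyperoxia, 8.93 to 8.94 in P29 room air and 7.27 to 7.55 in P29 hyperoxia. Chil3, a chitinase-like protein abundant in these cells, was 10.29 and 10.45, then 8.64, 6.74 and 8.13, then 12.83 and 12.95, then 10.98, 9.94 and 10.69 in the same groups. Its lowest array in each hyperoxia group was replicate 2, as for Ccl6 and for the list mean (6.67 at P14 and 7.27 at P29). Single markers differed: replicate 2 was the highest array of its group for Fabp4 in P14 hyperoxia (6.76) and for Siglecf in P29 hyperoxia (4.34). Fat markers, 2 of 6 tested, were also lower at P29, with means of 7.03 to 7.69 in room air and 5.29 to 5.63 in hyperoxia. Whether each alveolar macrophage marker is particular to these cells was not tested. In whole lung RNA, fewer cells of a type and less RNA per cell cannot be told apart, and the part alveolar macrophages had in the Ccl6 values was not tested.

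Ccl9 (1417936_at), the other Ccr1 ligand of myeloid cells, fell at P14 and its probe sets disagreed at P29. The leading probe set read 8.17 and 8.27 in P14 room air, 7.71, 7.45 and 7.73 in P14 hyperoxia, 9.01 and 8.98 in P29 room air, and 8.85, 9.0 and 8.96 in P29 hyperoxia. The P14 groups lay apart and the P29 groups overlapped. The effect was -0.59 ± 0.10 (SE) at P14 (adjusted p = 0.000499) and -0.06 ± 0.10 at P29 (adjusted p = 0.628), a difference of 0.53 ± 0.14 (adjusted p = 0.0178). Without P14 room air replicate 2 or P29 room air replicate 2 that difference was 0.49 or 0.52 and no longer passed.

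The second Ccl9 probe set, 1448898_at, was dimmer, at 6.12 and 6.0, then 5.03, 4.42 and 4.54, then 6.84 and 6.63, then 5.70, 6.06 and 5.85 in the same groups. There hyperoxia was below room air at both ages without overlap. It gave -1.39 ± 0.17 (SE) at P14 (adjusted p = 0.000137) and -0.87 ± 0.17 at P29 (adjusted p = 0.0017), and its difference between the effects, 0.52 ± 0.24, did not pass (adjusted p = 0.181). Whether Ccl9 transcript was lower in hyperoxia at P29 therefore depends on the probe set. Both probe sets rose with age, the leading one by 0.78 ± 0.11 in room air and by 1.31 ± 0.09 in hyperoxia (adjusted p = 3.57e-06).

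Ccl3 and Ccl4, the macrophage inflammatory proteins MIP-1 alpha and MIP-1 beta, changed little. Ccl3 (1419561_at) was dim, between 4.75 and 5.20 on all 10 arrays. It was called in none of the 5 comparisons, with group means that spanned 0.25 (effects of -0.09 ± 0.11 at P14, adjusted p = 0.506, and -0.21 ± 0.11 at P29, adjusted p = 0.117, SE). Its P29 arrays did not overlap, with 5.20 and 5.17 in room air and 5.10, 4.75 and 5.07 in hyperoxia. It was called lower at P29 in 3 alternatives, 1 of which kept P29 hyperoxia replicate 2 alone (-0.43).

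Ccl4 (1421578_at) measured 6.31 and 6.12 in P14 room air, 5.82, 5.94 and 5.97 in P14 hyperoxia, 6.31 and 6.44 in P29 room air, and 5.80, 6.0 and 6.18 in P29 hyperoxia. Hyperoxia was lower than room air at each age without overlap. The effect was -0.31 ± 0.11 (SE) at P14 (adjusted p = 0.04), lost in 9 of 22 alternatives, and -0.38 ± 0.11 at P29 (adjusted p = 0.0134), lost in 3. Leaving out P14 room air replicate 1 gave -0.21, leaving out any 1 of the P14 hyperoxia arrays gave -0.26 to -0.34, and leaving out P29 room air replicate 2 gave -0.32 at P29, none of which passed.

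**Figure D2:**
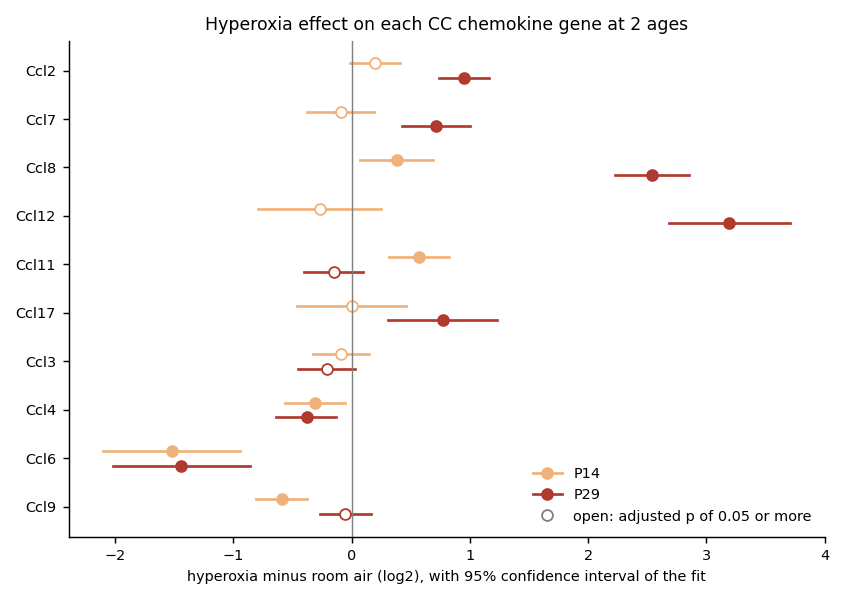
Difference between hyperoxia and room air in log2 intensity for each CC chemokine gene at P14 and P29, with the 95% confidence interval of the limma fit. Filled points have an adjusted p under 0.05. Ccl12 (3.19) and Ccl8 (2.54) lie far to the right at P29, and Ccl6 lies to the left at both ages (-1.52 and -1.44).

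The test of the difference between the P29 and P14 effects called 5 of the 10 genes higher at P29 (Ccl2, Ccl7, Ccl8, Ccl9 and Ccl12), where 11% of all genes tested were, and 1 lower (Ccl11), where 11.6% were. The median difference was 0.64 on the log2 scale over the 10 genes and 0 over all genes. All P14 arrays had the male pattern, and the P29 arrays were female or mixed by group. Age and sex therefore cannot be told apart in this test either. By position on chromosome 11, 4 of the 5 genes of the Ccl2 to Ccl8 group rose at P29, while Ccl11 was at -0.15 and was not called. Of the 4 genes from Ccl9 to Ccl4, 0 rose and 2 fell, on the leading probe sets. Over all genes tested, 34.2% were called higher and 25.6% lower at P29. Whether position had a part in these calls was not tested.

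Between the ages, 4 of the 10 genes were higher at P29 in room air (Ccl6, Ccl8, Ccl9 and Ccl11, against 22.2% of all genes) and 1 was lower (Ccl12, against 19.1%). In hyperoxia, 8 were higher at P29 (all but Ccl3 and Ccl4, against 15.4% of all genes) and 0 were lower (against 11.7%). The members' median age difference was 0.21 in room air and 0.82 in hyperoxia, against 0.01 over all genes in each. Ccl6 rose by 0.85 ± 0.29 (SE) in room air (adjusted p = 0.0349) and by 0.93 ± 0.24 in hyperoxia (adjusted p = 0.0131). The room-air call was lost when any 1 of the 4 room-air arrays was left out, with values of 0.68 to 1.01, and the hyperoxia call without P14 hyperoxia replicate 2 (0.76), under the trended robust fit (0.93) and with P29 hyperoxia replicate 2 alone (0.32). The second probe set of Ccl6 gave 0.86 in room air (adjusted p = 0.0324) and 0.61 in hyperoxia, where its arrays overlapped and it did not pass (adjusted p = 0.0787). Each age comparison shares its arrays with a hyperoxia comparison, so these counts are not independent of those above. At P29 the arrays also differ from P14 in their sex-linked transcripts, and age and sex cannot be told apart in room air.

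The values at P29 were set beside RNA quality and sex. With the actin 3' minus 5' difference of each array as a term in the fit, the P29 effect was 3.12 for Ccl12 (adjusted p = 0.00559), 2.74 for Ccl8 (adjusted p = 0.00136) and 1.08 for Ccl2 (adjusted p = 0.00848), and these calls were kept. In that fit Ccl6 was at -1.27 (adjusted p = 0.157), Ccl7 at 0.56 (adjusted p = 0.191) and Ccl17 at 0.62 (adjusted p = 0.372), and 0 of the 10 genes passed at P14. The actin difference separates all hyperoxia from all room-air arrays, so little of the contrast is left to such a fit. With P29 hyperoxia replicate 2, the female array, as the only P29 hyperoxia array, Ccl12 was at 3.52, Ccl8 at 2.35, Ccl2 at 0.92, Ccl7 at 0.55, Ccl17 at 1.25 and Ccl6 at -2.05. The same 5 genes were called higher in that fit, in which the lone array is assumed to vary like the other groups, and in one with the Y-linked level as a term.

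Of 10 CC receptors, 7 were tested: 1 was higher and 2 were lower at P14, and 2 were higher and 3 lower at P29. Ccr1, the receptor of Ccl3, Ccl6 and Ccl9, stood at 6.88 and 6.77 in P14 room air, 7.04, 6.66 and 6.98 in P14 hyperoxia, 7.04 and 6.91 in P29 room air, and 7.50, 7.90 and 7.86 in P29 hyperoxia. It rose at P29 by 0.77 ± 0.14 (SE, adjusted p = 0.000646), and the effects at the ages differed by 0.70 ± 0.20 (adjusted p = 0.0238). A second, dim probe set of Ccr1 gave 0.54 at P29.

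Ccr2, the receptor of Ccl2, Ccl7 and Ccl12, had no settled direction. Its brightest probe set gave 0.45 ± 0.10 (SE) at P14 (adjusted p = 0.00387) and 0.42 ± 0.10 at P29 (adjusted p = 0.00505). Its other 3 probe sets gave -0.96, 0.29 and -0.53 at P14 and -0.79, 0.64 and -0.72 at P29. Ccr7, which guides dendritic cells and T cells to lymph nodes, fell by 0.84 ± 0.14 at P14 (adjusted p = 0.000637) and fell by 1.60 ± 0.14 at P29 (adjusted p = 6.3e-06). Ccr6, the receptor of Ccl20, fell by 1.20 ± 0.13 at P29 (adjusted p = 2.6e-05), and Ccr10 fell by 0.32 ± 0.10 at P14 (adjusted p = 0.0179) and fell by 0.54 ± 0.10 at P29 (adjusted p = 0.000693). Ccr8, at which mouse Ccl8 acts, and Ccr3 were below the filter, and Ccr4, at which Ccl17 acts, was not called at either age.

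Atypical receptors bind chemokines without signalling through G proteins, and 5 of 5 were tested, with 2 higher and 1 lower at P14 and 2 higher and 3 lower at P29. Ackr3, a scavenger of the CXC chemokine Cxcl12, rose by 1.32 ± 0.10 (SE) at P14 (adjusted p = 3.57e-06) and by 1.69 ± 0.10 at P29 (adjusted p = 3.93e-07). Ccrl2, a chemerin-binding receptor, fell by 1.37 ± 0.11 (adjusted p = 4.46e-06) and fell by 2.21 ± 0.11 (adjusted p = 1.25e-07). Ackr2, the scavenger of inflammatory CC chemokines, was at 0.04 at P14 and fell by 0.79 ± 0.12 at P29 (adjusted p = 0.000204). Its 2 dimmer probe sets gave -0.95 and -0.81 at P14 and -1.31 and -1.61 at P29. Ackr4 rose by 0.88 ± 0.23 and 1.13 ± 0.23, but 1 of its other probe sets gave -0.46 and -1.52. Ackr1, the Duffy receptor of venules, was at -0.22 ± 0.11 at P14 (adjusted p = 0.103) and fell by 0.32 ± 0.11 at P29 (adjusted p = 0.0227).

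**Figure D3:**
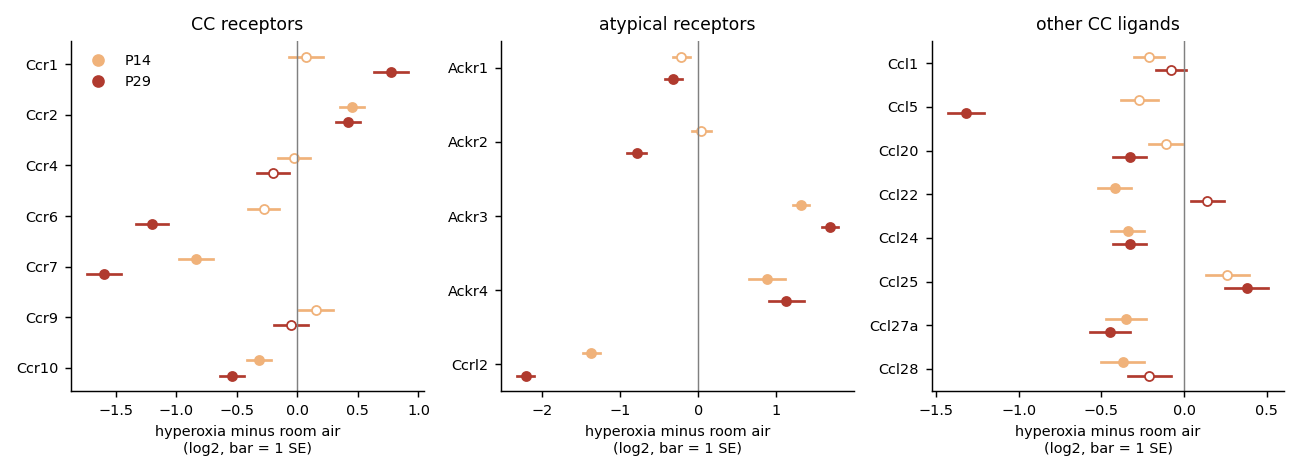
Difference between hyperoxia and room air in log2 intensity at P14 and P29 (bars, 1 SE of the limma fit; filled points, adjusted p under 0.05) for CC receptors, atypical receptors and the other CC ligands, each from its brightest probe set. Ccr1 (0.77) is to the right at P29 and Ccl5 (-1.32) and Ccr7 (-1.60) to the left. Other probe sets of Ccr2, Ackr2, Ackr4 and Ccl25, and of Ccr9 at P14, disagree with the ones drawn.

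Most of the other CC ligands tested were not called higher in hyperoxia. Of 11 listed, 8 were tested, with 0 higher and 4 lower at P14, 1 higher and 4 lower at P29, and medians of -0.30 and -0.27. Over all genes tested, 32.3% were higher and 22.8% lower at P14, and 34.2% and 25.6% at P29. The gene called higher, Ccl25 (0.38 ± 0.13, SE, adjusted p = 0.023), was at -0.16 at P29 on its other probe set. Ccl5, the T cell product known as RANTES, stood at 8.32 and 8.11 in P29 room air and at 6.77, 7.07 and 6.83 in P29 hyperoxia, a fall of 1.32 ± 0.11 (SE, adjusted p = 3.69e-06). Ccl22, which shares the receptor Ccr4 with Ccl17, fell by 0.42 ± 0.10 at P14 (adjusted p = 0.00441) and was at 0.14 at P29 (adjusted p = 0.233). Ccl24, Ccl27a and Ccl28 were lower at P14 by smaller amounts (-0.34, -0.35 and -0.37), as were Ccl24, Ccl27a and Ccl20 at P29 (-0.33, -0.45 and -0.33). T and natural killer cell markers were lower on the same arrays, 9 of 10 tested at P14 and 10 of 10 at P29. Their mean was 6.15 to 6.23 in P14 room air, 5.57 to 5.64 in P14 hyperoxia, 7.26 to 7.28 in P29 room air and 5.82 to 5.91 in P29 hyperoxia, and their part in the Ccl5 values was not tested.

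Cytokines and targets of NF-kappaB and AP-1, the transcription factors best known for inducing CC chemokines, were mixed. Of 24 listed, 21 were tested, with 10 higher and 3 lower at P14 and 6 and 6 at P29. Il6 stood at 3.77 and 3.89 in P14 room air, 5.60, 6.82 and 6.43 in P14 hyperoxia, 3.77 and 3.54 in P29 room air and 6.87, 6.42 and 6.59 in P29 hyperoxia. It thus rose at both ages, by 2.45 ± 0.27 (SE, adjusted p = 4.03e-05) and 2.97 ± 0.27 (adjusted p = 6.64e-06). All room-air values of Il6 lay under the filter value of 5, so it passed the filter only through its hyperoxia arrays. Il1b fell by 0.75 ± 0.13 (adjusted p = 0.000541) at P14 and fell by 1.51 ± 0.13 at P29 (adjusted p = 3.53e-06), and Il18 fell by 1.24 ± 0.13 at P29 (adjusted p = 1.48e-05). The endothelial adhesion molecule Vcam1 rose by 0.90 ± 0.10 and 1.61 ± 0.10 on its brightest probe set, but the other 2 gave between -0.17 and 0.15. Birc3, an inhibitor of apoptosis, rose by 0.69 ± 0.11 at P14 (adjusted p = 0.000421; 0.11 on another probe set).

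Of 13 type 2 and interferon inducers, 6 were tested, with 3 higher and 0 lower at P14 and 2 and 2 at P29. Il4, Il13, Il25, Il10, Ifng and Ifnb1 were below the filter. Tslp, an epithelial cytokine of type 2 responses, rose by 1.77 ± 0.09 (SE) at P14 (adjusted p = 4.36e-07) and by 0.90 ± 0.09 at P29 (adjusted p = 1.73e-05). Il33, another epithelial alarmin, was at -0.42 ± 0.21 at P14 (adjusted p = 0.106) and fell by 0.81 ± 0.21 at P29 (adjusted p = 0.00651), when the transcription factor Irf1 fell by 0.56 ± 0.12 (adjusted p = 0.00186). The receptor chain Il13ra1 was at 0.85 ± 0.09 at P14 and 0.88 ± 0.09 at P29 (adjusted p = 3.38e-05 and 1.74e-05), but its other 4 probe sets gave -0.30 to 0.52 at P14 and -0.10 to 0.78 at P29. Il4ra was at 0.39 ± 0.07 at P14 (adjusted p = 0.000981), with -0.67 and 0.25 on others.

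Downstream of the receptors, 13 of 14 signalling genes were tested, with 1 higher and 4 lower at P14 and 0 higher and 5 lower at P29. Rac2, the leukocyte Rac GTPase needed for migration, fell by 1.31 ± 0.08 (SE, adjusted p = 1.45e-06) at P14 and fell by 1.95 ± 0.08 at P29 (adjusted p = 6.17e-08). Its activator Dock2 fell by 0.44 ± 0.13 at P14 (adjusted p = 0.0164) and fell by 1.04 ± 0.13 at P29 (adjusted p = 6.73e-05). Elmo1, the partner of Dock2, fell by 0.54 ± 0.11 at P14 (adjusted p = 0.00218; 0.10 and -1.63 on others) and fell by 0.66 ± 0.11 at P29 (adjusted p = 0.000519; -0.27 and -1.44). Arrb2, an arrestin, fell by 0.43 ± 0.08 at P14 (adjusted p = 0.00135; -0.10 on another probe set), and the exchange factor Vav1 fell by 0.50 ± 0.08 at P29 (adjusted p = 0.000217; -0.01 on another probe set).

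Of 11 genes that trim or bind chemokines or govern macrophage growth, all were tested, with 4 higher and 4 lower at P14 and 6 and 2 at P29. Mmp2, which clips Ccl7, was higher than in room air by 1.14 ± 0.08 at P29 (adjusted p = 1.11e-06, with 1.08 on another probe set). Its mean went from 12.04 at P14 to 10.65 at P29 in room air, and from 11.89 to 11.79 in hyperoxia. Its activator Mmp14 was higher by 1.12 ± 0.10 at P29 (adjusted p = 7.57e-06, with 0.37 and 0.80 on others). The Mmp14 mean went from 10.99 to 8.48 in room air and from 10.67 to 9.60 in hyperoxia. Ext1, which builds the heparan sulphate that holds chemokines, was higher by 0.82 ± 0.10 at P29 (adjusted p = 4.27e-05, with 0.92 on another). The Ext1 mean went from 10.12 to 9.32 in room air and from 10.38 to 10.14 in hyperoxia. Dpp4, a peptidase that removes the ends of several chemokines, fell by 0.78 ± 0.09 at P29 (adjusted p = 3.34e-05, with -0.68, -1.39 and -0.39 on others). Mmp9 fell by 0.87 ± 0.15 at P14 (adjusted p = 0.000664; -1.13 on another probe set). Also at P14, Csf1r, the macrophage growth factor receptor, was at 0.51 ± 0.08 (adjusted p = 0.000244; 0.27 and -0.29 on others) and its ligand Csf1 at 0.58 ± 0.10 (adjusted p = 0.000793; -0.17, 0.55 and 0.07 on others). The proteoglycan Sdc4 was at -1.98 ± 0.39 (adjusted p = 0.00157), with 1.0 on another probe set, so its direction is not settled.

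Markers of the cells that make CC chemokines moved in several directions. Of 10 interstitial macrophage markers tested of 12, 4 were higher and 1 lower at P14, and 5 were higher and 1 lower at P29. Their mean level was 8.30 to 8.33 in P14 room air, 8.55 to 8.72 in P14 hyperoxia, 8.75 to 8.83 in P29 room air and 9.22 to 9.27 in P29 hyperoxia, the group in which Ccl2, Ccl7, Ccl8, Ccl12 and Ccl17 were highest. C1qa, a complement gene of tissue macrophages, was at -0.13 ± 0.13 (SE) at P14 (adjusted p = 0.418) and rose by 0.78 ± 0.13 at P29 (adjusted p = 0.000346). Cd163, a haemoglobin scavenger receptor, rose by 1.11 ± 0.24 (adjusted p = 0.00242) and 1.33 ± 0.24 (adjusted p = 0.000669), and Cd68 fell by 1.07 ± 0.15 at P14 and fell by 1.36 ± 0.15 at P29. The list also holds Lyve1, which lymphatic endothelium expresses. Lyve1 means were 9.88 in P14 room air, 12.21 in P14 hyperoxia, 10.57 in P29 room air and 11.87 in P29 hyperoxia. The median effect of the list was 0.08 at P14 and 0.50 at P29, so its higher mean at P14 rests on few genes, Lyve1 among them.

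Monocyte markers, 8 of 10 tested, were 3 higher and 4 lower at P14 and 4 higher and 3 lower at P29. Their mean was 8.52 to 8.63, 8.30 to 8.59, 8.60 to 8.79 and 8.49 to 8.57 in the 4 groups in the same order. Members went both ways at P29. Vcan was higher in hyperoxia by 1.57 ± 0.20 (SE, adjusted p = 6.27e-05), with 1.36 and 0.83 on the next brightest of its other 7 probe sets. From P14 to P29 its mean went from 9.72 to 6.21 in room air and from 9.19 to 7.78 in hyperoxia. F13a1 was higher by 1.02 ± 0.10 (adjusted p = 9.1e-06). Treml4 fell by 1.88 ± 0.22 (adjusted p = 3.62e-05) and Ace fell by 1.52 ± 0.10 (adjusted p = 1.02e-06, with -2.81 on another probe set). Which cells of the whole lung gave these values was not tested. Dendritic cell markers, 11 of 12 tested, were 0 higher and 5 lower at P14 and 2 and 5 at P29, with means of 7.62 to 7.76, 7.44 to 7.49, 8.49 to 8.51 and 8.20 to 8.34. Neutrophil markers, 10 of 12 tested, were 0 higher and 10 lower at P14 and 0 and 9 at P29, with means of 7.50 to 7.55, 6.36 to 6.44, 7.52 to 7.97 and 6.18 to 6.28. Mast cell markers, 8 of 9 tested, were 7 higher and 1 lower at P14 and 5 and 1 at P29. B cell markers, 7 of 8 tested, were 0 higher and 3 lower at P14 and 0 and 7 at P29. The part of any of these cells in the chemokine values was not tested.

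**Figure D4:**
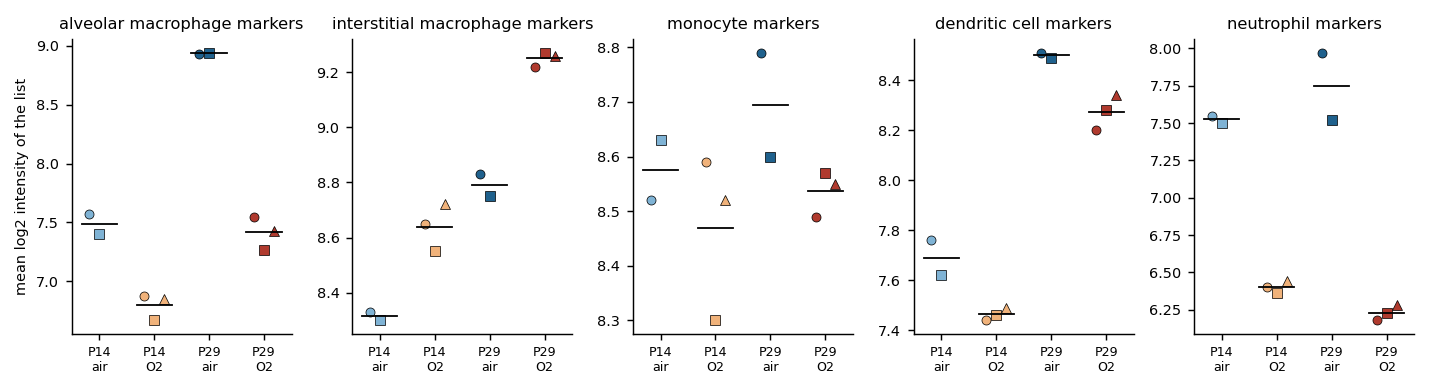
Mean log2 intensity of marker lists of alveolar macrophages, interstitial macrophages, monocytes, dendritic cells and neutrophils on each array, by group, with replicates as symbols and a bar at each group mean. The vertical scales differ between panels. In P29 hyperoxia the interstitial macrophage list is highest (9.22 to 9.27), while the alveolar macrophage (7.27 to 7.55) and neutrophil (6.18 to 6.28) lists are below P29 room air.

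For the 6 genes whose group means spanned 1 or more on the log2 scale, the 3 genes most alike over the 10 arrays were found by the root-mean-square difference of centred values. Nearest to Ccl8 was Chl1, a neural adhesion molecule, at 0.28, followed by Cyp7b1, an oxysterol hydroxylase, and the heat shock protein gene Hsph1, both at 0.47. Nearest to Ccl12 were Cfi, complement factor I, at 0.44, Inhba, an activin subunit, at 0.50, and Tmem255a at 0.51. Chl1 was at 0.30 at P14 (adjusted p = 0.213) and rose by 3.13 at P29 (adjusted p = 5.73e-07), and Cfi rose by 0.60 (adjusted p = 0.000164) and 2.65 (adjusted p = 1.93e-08).

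For Ccl6 the nearest genes were Olr1, a receptor of oxidised lipoprotein, at 0.30, and Cybb, the phagocyte oxidase, and Coro1a, a leukocyte actin regulator, both at 0.32. For Ccl17 they were Slc27a2 at 0.18 and Ccr1 and Sptlc3 at 0.20. For Ccl9 they were B2m, the light chain of MHC class I, and Chac1 at 0.21 and Ms4a6b at 0.22, and for Ccl11 they were Slc23a1 at 0.09 and Dock8 and Cyb561 at 0.10. No member was among the nearest genes of another. The measure follows all differences between arrays, those of RNA quality included.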

How the data were processed

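Lung RNA was labelled and hybridised to Affymetrix arrays, per the labels' protocols. The authors deposited log2 intensities, and Partek 6.4 and GCRMA are named in the submitters' processing notes; their settings, and the version of GCRMA, are not given in the sources. Groups and replicate numbers come from the sample titles. Probe sets with exactly 1 annotated symbol were used (34958 of 45101; 932 had several and 9211 none), the brightest per gene by mean over 10 arrays, and 14988 of 18193 genes were kept for reaching a log2 intensity of 5 on 2 or more arrays.

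Means of 4 groups were fitted to all 10 arrays with limma 3.58.1 in R 4.3.3 (6 residual and 5.09 prior degrees of freedom). Tests were two-sided, with Benjamini-Hochberg adjustment over the genes kept (threshold 0.05). SE is that of the fitted contrast. Further probe sets of members were tested in a fit of 27604 probe sets. The members and the gene lists were chosen with earlier results of these data known. Named by rule are all members, up to 4 genes of smallest p per pathway list and hyperoxia comparison, and 3 nearest genes of members spanning 1 or more; marker genes and a gene's value at the other age were chosen after their values were seen. Tested on simulated data for the P29 comparison, 56% of 100 genes changed by 0.5 and 95% of 100 changed by 1 were called among 14988, with 7 false calls among 158. No other gene was changed there, while in the real data 34.2% of genes were called higher and 25.6% lower at P29. The adjusted threshold is thus stricter in the simulation, and its rates do not describe the real calls. Alternatives were 2 filters, means of probe sets, a trended robust fit, a replicate block, array weights, 2 scalings, fits of the 2 groups in question, terms for actin 3' minus 5' and for Y-linked level, 1 P29 hyperoxia array alone, and leaving out each array. Promoter windows are from RefSeq, GRCm38.p6.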

Additional observations from a re-analysis of the deposited data

Results flagged for a closer look

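The effect of hyperoxia differed between P29 and P14 for 6 of the 10 CC chemokine genes by the test of the difference itself (limma interaction contrast, adjusted p under 0.05 over 14988 genes). The differences, P29 minus P14 on the log2 scale, were 3.46 for Ccl12, 2.16 for Ccl8, 0.81 for Ccl7, 0.76 for Ccl2, 0.53 for Ccl9 and -0.73 for Ccl11. For Ccl12, Ccl8, Ccl7 and Ccl2 the effect was larger at P29, for Ccl9 a fall at P14 was not seen at P29 on the leading probe set, and for Ccl11 a rise at P14 was not seen at P29. The difference of Ccl9 was not called on its second probe set (0.52, adjusted p = 0.181). All P14 arrays had a male pattern of sex-linked transcripts, both P29 room-air arrays a female one, and P29 hyperoxia was mixed. Age and sex therefore cannot be told apart in these differences.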

How the results depend on the processing

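Over 22 alternatives, 31 of 50 member results stayed on the same side of the threshold in each one run, and 0 reversed while called. The P29 calls of Ccl2, Ccl8 and Ccl12 were kept in all 22. The number called higher at P14, 2, became 1 under the filter at a log2 value of 6, under 75th percentile scaling, under array weights and with the Y-linked term, and 1 to 2 when arrays were left out (1 without P14 room air replicate 1 or 2 or P14 hyperoxia replicate 1 or 3). With the actin term 0 were higher and 0 lower at P14, and 3 were higher and 0 lower at P29. The number lower at P29, 2, was 1 to 2 when arrays were left out (1 without P29 room air replicate 2). The 1 gene with a lower effect at P29 than at P14, Ccl11, became 0 under the filter at 6, which removes it, and 0 with P29 hyperoxia replicate 2 alone. The mean of all probe sets moved Ccl9 at P29 to -0.46 (adjusted p = 0.00661). Same-numbered replicates share only a number: correlations of their deviations lay between -0.09 and 0.20, and the labels give no pairing. With the replicate block, 2 genes were higher and 3 lower at P14 and 5 and 2 at P29, as without it, and among member calls 1 was lost, Ccl11 with age in hyperoxia (0.32, adjusted p = 0.0639). Ccl3, Ccl4, Ccl7 and Ccl11 lie below the array median throughout. Ccl12 and Ccl2 do so on 7 of 10 arrays each and Ccl8 on 5. The P29 room-air values of Ccl12, 5.49 and 4.90, lie near the filter value of 5. How far background alters the differences of these genes was not tested.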
